A study of Mus musculus with 32 samples.

Results

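The genes described here encode the collagens, laminins, nidogens and integrins of the extracellular matrix and its receptors, together with the ADAM, ADAMTS and matrix metalloproteinase (MMP) proteases and the tissue inhibitors of metalloproteinases Timp2, Timp3 and Timp4. They were chosen by gene symbol. A gene counted as measured when at least 1 of its probes had a detection p-value under 0.05 on at least 3 of the 32 arrays. Of 133 such genes on the array, 78 (58.6%) met this, through 95 of 196 probes. Over all named genes 10308 of 16593 (62.1%) did. Of the 78 genes, 44 were detected on all 32 arrays, 17 had at least 1 group without a detected array, and the least often detected was seen on 3 arrays.

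Collagens are triple-helical proteins that form fibrils, sheets or beaded filaments. In the brain they lie mostly in vessel walls, meninges and choroid plexus, and type IV collagen with laminins and nidogens makes the basement membrane around vessels. Integrins are cell-surface receptors of paired alpha and beta chains that bind these proteins. ADAM proteases cut proteins off cell surfaces, ADAMTS proteases cut matrix proteoglycans, MMPs cut matrix and surface proteins, and TIMPs block them. Detection differed between the families. All 3 TIMPs, 9 of 10 laminins and nidogens, 4 of 6 basement membrane collagens, 5 of 8 network and beaded filament collagens and 6 of 11 fibrillar collagens were measured. So were 4 of 6 fibril-associated, 3 of 4 transmembrane and 2 of 2 multiplexin collagens. Among integrins, 5 of 6 laminin- and collagen-binding alpha chains, 1 of 2 alpha chains that bind the RGD tripeptide and 5 of 6 non-leukocyte beta chains were measured, but 0 of 7 leukocyte integrins, which include Itgam and Itgb2 of the microglial complement receptor. Among proteases, 13 of 29 ADAM genes, 8 of 14 ADAMTS genes and 9 of 18 MMP genes were measured, and Itgbl1, an integrin-like gene, stood outside these classes.

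The samples were hippocampus of mice on the C57BL/6J background that ate chow after weaning. Wild type mice gave 4 arrays at 1 month and 6 at 23 months. ASC -/- mice, which lack the inflammasome adaptor, gave 3 young and 6 old arrays. CIAS -/- mice, which lack the inflammasome sensor NLRP3, also gave 3 young and 6 old arrays, and CASP11-/- mice, which lack an inflammatory caspase, gave 4 young arrays and no old ones. For old ASC -/- mice the titles give 23 months and the characteristics of 5 samples 21 months. No label states that each sample was a separate animal, so the p-values speak only to the scatter among these samples, part of which may be technical. With 1 month and 21 to 23 months as the only ages, a change soon after 1 month and a change in later life cannot be told apart.

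Each array detected between 13172 and 13900 probes. Replicate 6 of old wild type stood apart, with a lowest correlation of 0.9652 with its group against 0.9894 among the other 5 arrays (across genes, which are not independent). Its summed level of 5 striatal marker genes was 14.76 on a log2 scale, against at most 10.86 on the other 31 arrays. Its 7 hippocampal markers summed to 11.10, against at least 12.53 elsewhere, and its 12 meningeal fibroblast markers to 10.83, the lowest of all. Summed choroid plexus markers ranged from 10.33 to 14.75 over the arrays, lowest on old CIAS -/- replicate 1. Xist, the transcript of the inactive X chromosome, was high on 8 arrays, young wild type replicates 3 and 4, old wild type replicate 4, young ASC -/- replicates 1 and 4, young CASP11-/- replicates 2 and 4, and old CIAS -/- replicate 5. The last of these was also high in the Y-linked Eif2s3y, at 9.91. Sex was therefore unevenly spread over the groups. In bulk tissue, fewer cells of a type and less RNA per cell cannot be told apart.

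On the old wild type array that stood apart, 20 of the 78 genes (25.6%) lay above and 29 (37.2%) below the range of the other 5 old wild type arrays, and 19 (24.4%) lay more than 0.5 log2 units from their mean. Over all features 29.6% lay above, 30.1% below and 16.9% more than 0.5 from the mean. Col24a1, a fibrillar collagen, stood 1.40 above that mean, Col6a1 0.99, the laminin receptor chain Itgb4 0.97, the proteoglycan-cutting Adamts4 0.82 and the sheddase Adam17 0.67. The transmembrane collagen Col23a1 stood at -1.24 relative to the same mean, the catalytically inactive neuronal Adam11 at -1.20, and the basement membrane pair Col4a2 and Col4a1 at -0.74 and -0.61. For members below, a call that changed without this array is stated. Differences that moved by over 1.5 times and by more than 0.05 without it are also given without it.

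**Figure D1:**
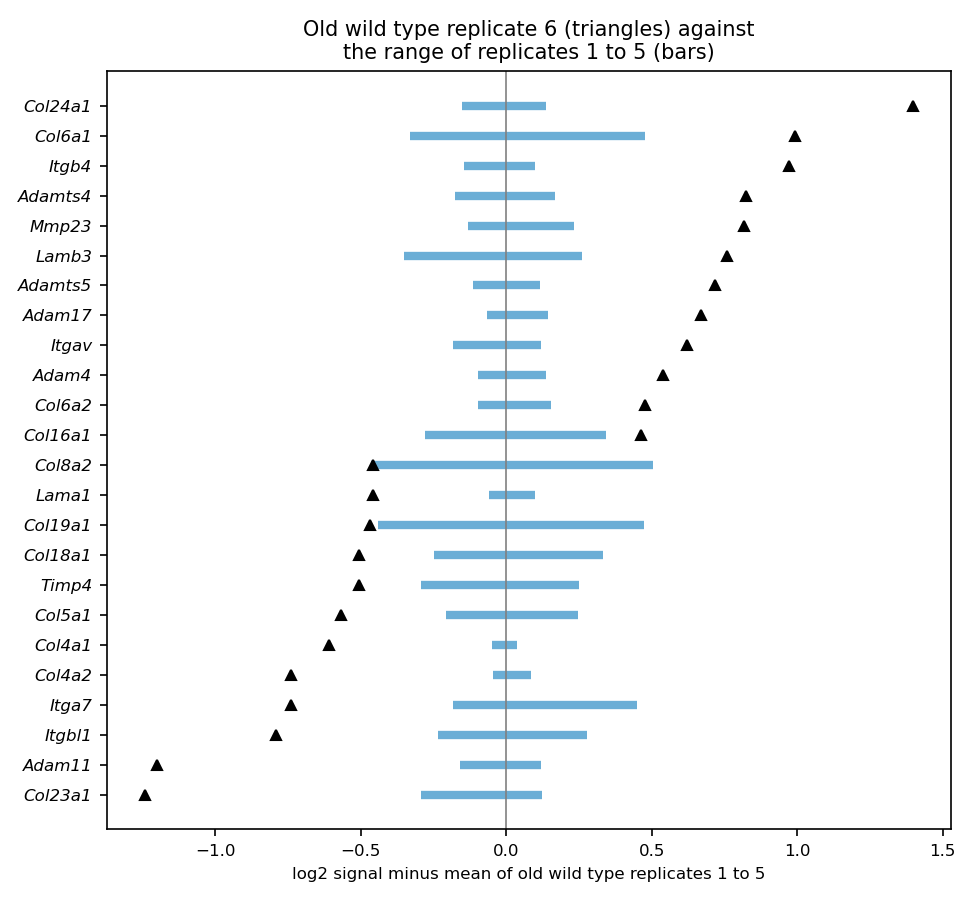
Difference of old wild type replicate 6 from the mean of its 5 fellow arrays, in log2 units on the x axis, for the 12 lowest and 12 highest of the 78 genes. Points are the replicate 6 values and bars the range of the other 5 arrays around their own mean. Col24a1 lies 1.40 above that mean and Col23a1 at -1.24.

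Levels below are log2 normalised signals, differences are log2 differences with their standard error (SE) from 1 limma fit of all arrays, and adjusted p is Benjamini-Hochberg over all 11178 features. A gene is said to have risen or fallen where adjusted p was under 0.05. With age in wild type, 8 of the 78 genes passed (10.3%), 2 higher and 6 lower, against 5.66% of all features (2.88% higher and 2.78% lower). In ASC -/- mice 1 fell and 0 rose, against 0.277% of all features (0.179% lower and 0.0984% higher). In CIAS -/- mice 0 passed with limma, against 0.734%. An unadjusted p under 0.05 was found for 11 of 78 members and for 12.2% of all features. For the age effect averaged over the 3 genotypes, called the mean age effect below, 9 passed (11.5%), 3 higher and 6 lower, against 6.15% (3.42% higher and 2.73% lower). Across all members the differences leaned downward in wild type, where 52 of 78 (66.7%) lay below 0 against 53.7% of all features, with a median of -0.129 against -0.013. The lean was smaller for the mean age effect, with 62.8% below 0 against 51.4%, and a median of -0.037 against -0.0029. Genes below 0 in all 3 genotypes numbered 22 of 78 (28.2%, against 17.3% of all features), and genes above 0 in all 3 numbered 9 (11.5%, against 16.9%). Summed levels of 8 markers of oligodendrocyte precursors and newly formed oligodendrocytes also moved with age, from between 11.25 and 11.44 on the young arrays to between 10.90 and 11.10 on the old ones. Of these markers 3 were lower for the mean age effect. So were 6 of 8 mature oligodendrocyte markers and 3 of 7 immature neuron markers, while 7 of 10 microglial markers were higher. Each remaining marker list had at most 1 called. The part of these cell types in the age results was not tested.

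These counts depended on the arrays used. Without the 8 arrays with high Xist, a choice made after seeing the data, 1 member was called for age in wild type (0.570% of all features) and 1 for the mean age effect (1.66%). Of the 27 called results for members in all comparisons, 4 then kept their call, namely the mean age effect of Adam19, Mmp17 in old ASC -/- against old wild type, and Adam22 and Adamts4 in old CIAS -/- against old wild type. In a fit of only young and old wild type 0 members were called. Replicate numbers as a block left 6 in wild type and 8 for the mean age effect. Shares over all features are not given for either fit, so these counts do not set the members apart. Without old wild type replicate 6, 8 members were called in wild type (7.26% of all features), 6 of them the same, with Adamts5 and Adam4 in place of Col2a1 and Mmp24. The mean age effect then had 12 (8.44% of all features), with Adamts5, Col24a1 and Mmp23 added. The median difference of the members was then -0.079 in wild type and -0.022 for the mean age effect, with 67.5% and 59.7% of 77 measured members below 0, against 53.4% and 50.9% of all features. Removing any single array left between 3 and 9 members for wild type, and shares over all features are given only for old wild type replicate 6. The lowest count came without young wild type replicate 2 or 3, and 5 were left without young wild type replicate 1 or 4 or old wild type replicate 2.

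**Figure D2:**
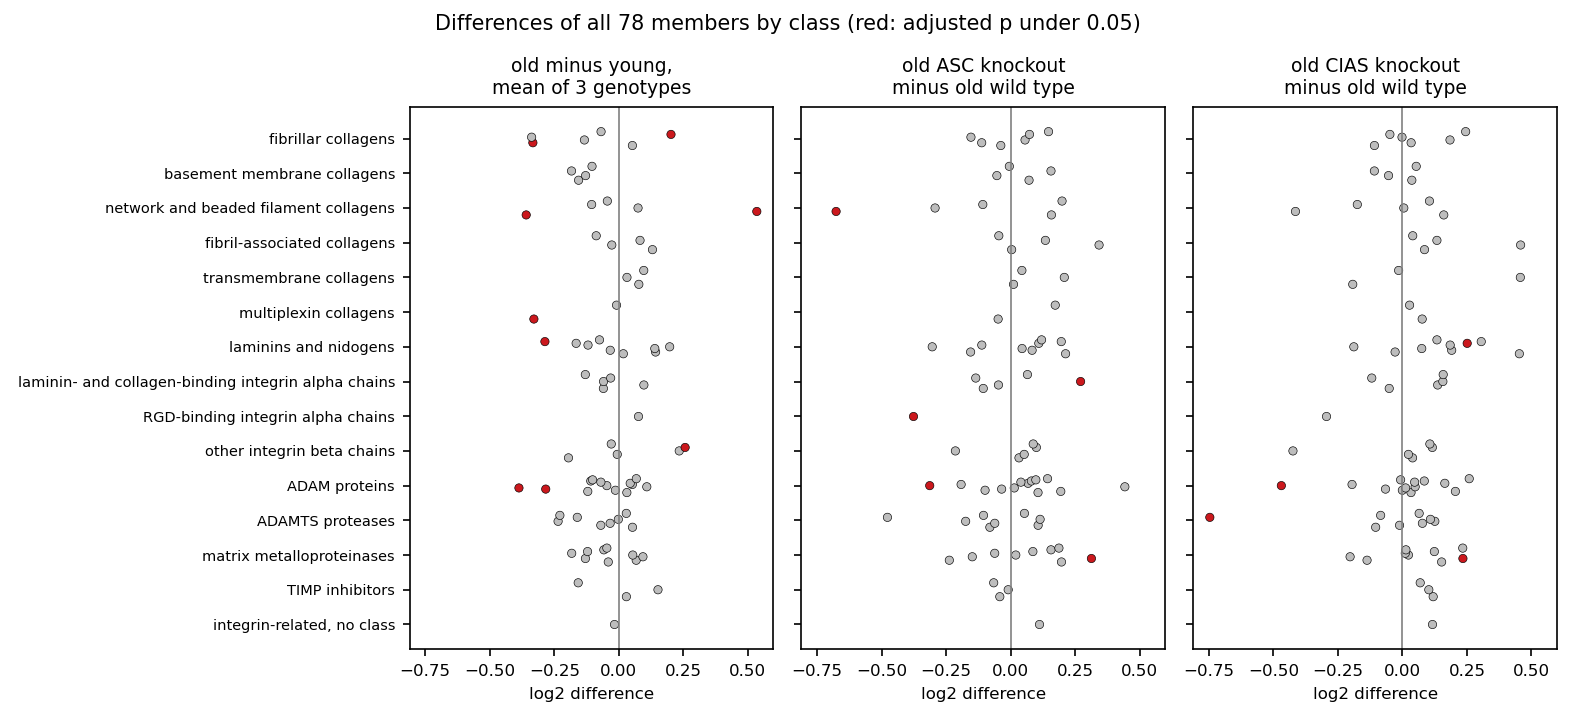
Log2 differences (x axis) of the 78 genes by class (y axis) for the mean age effect of 3 genotypes, old ASC -/- against old wild type, and old CIAS -/- against old wild type. Each point is 1 gene and red points passed adjusted p under 0.05, which were 9, 5 and 4 genes in the 3 panels.

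Among collagens, Col6a1 rose most with age. It encodes a chain of type VI collagen, which forms beaded filaments beside basement membranes. Young wild type arrays stood at 8.93, 8.84, 8.76 and 8.74, and old wild type arrays ran from 9.29 over a median of 9.70 to 10.61, the highest being replicate 6. The wild type groups did not overlap. Young ASC -/- arrays stood at 8.83, 8.59 and 9.02 and old ones from 8.91 over 9.04 to 9.56. Young CIAS -/- arrays stood at 8.77, 9.11 and 9.17 and old ones from 8.93 over 9.47 to 9.55. In both knockouts old and young arrays overlapped. CASP11-/- arrays stood at 9.00, 8.66, 8.59 and 8.75, with replicate 3 just below the lowest of the other young arrays. The age difference was 0.96 in wild type (SE 0.178, 1.95-fold, adjusted p = 0.00136, higher in 6 of 6 old arrays) and 0.80 without replicate 6 (adjusted p = 0.00119). It was 0.29 in ASC -/- (adjusted p = 0.772) and 0.35 in CIAS -/- mice (adjusted p = 0.489). The mean age effect was 0.53 (SE 0.109, 1.45-fold, adjusted p = 0.00199). Another detected probe of Col6a1 also rose, by 0.79 in wild type with replicate 6 included (SE 0.185, adjusted p = 0.0112 over all probes).

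The start of Col6a1 is shown because this gene had the largest called age difference among the members. The window runs from 250 bases before to 50 after the transcription start given by RefSeq (mouse GRCm38.p6, chr10:76725995-76726294, minus strand). Capitals mark a match to the AP-1 motif TGANTCA, searched on both strands like the other motifs named below.
Col6a1 promoter: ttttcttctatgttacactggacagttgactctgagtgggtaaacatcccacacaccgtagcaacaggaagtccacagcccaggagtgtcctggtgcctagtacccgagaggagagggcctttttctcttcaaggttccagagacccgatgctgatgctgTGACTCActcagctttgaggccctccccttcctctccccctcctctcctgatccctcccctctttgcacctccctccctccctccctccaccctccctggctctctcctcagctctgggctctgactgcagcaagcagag

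Type II collagen Col2a1, the fibrillar collagen of cartilage, also rose with age. In wild type the young arrays stood at 5.18, 5.14, 4.72 and 5.17, with replicate 3 lowest, and old ones ran from 5.17 over 5.39 to 5.55. The ranges overlapped by a narrow margin. The difference was 0.31 in wild type (SE 0.094, 1.24-fold, adjusted p = 0.0452) and 0.20 for the mean age effect (SE 0.058, 1.15-fold, adjusted p = 0.0323). Without old wild type replicate 6 the wild type difference was 0.28 (adjusted p = 0.0745). The wild type call was lost without any of 10 arrays, young wild type replicates 2, 3 and 4, old wild type replicates 2, 3, 5 and 6, young ASC -/- replicate 1 and old ASC -/- replicates 1 and 3 (adjusted p from 0.0503 to 0.233). The mean age call was lost without any of 5, young wild type replicate 3, young ASC -/- replicates 1 and 4 and young CIAS -/- replicates 2 and 4 (adjusted p from 0.0535 to 0.0977). It was also lost with a covariate for sex-linked transcripts (0.15, adjusted p = 0.148). The level was low, and the probe was detected on 3 of 4 young wild type and 2 of 3 young CIAS -/- arrays. Another Col2a1 probe gave 0.26 for the mean age effect (adjusted p = 0.00262).

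Col15a1, a multiplexin of basement membranes, fell with age. Young wild type arrays stood at 5.65, 5.53, 6.06 and 5.64 and old ones ran from 5.08 over 5.36 to 5.65. In ASC -/- mice the young arrays stood at 5.91, 5.42 and 5.75 and old ones ran from 4.90 over 5.37 to 5.58. In CIAS -/- mice the young arrays stood at 5.70, 5.73 and 5.60, above the old range of 5.25 to 5.57. Old arrays thus lay lower in each genotype, with overlap in wild type and ASC -/- mice. Over the 3 genotypes the mean age effect was -0.33 (SE 0.076, 1.26-fold lower, adjusted p = 0.00667), and wild type alone gave -0.36 (adjusted p = 0.0798). Its relative Col18a1, the source of endostatin, gave a mean age effect of -0.01 (adjusted p = 0.982).

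Col26a1, grouped with the network collagens, fell as well. In wild type the young arrays stood at 6.73, 6.53, 6.41 and 6.01 and old ones ran from 5.81 over 5.97 to 6.18. Young ASC -/- arrays stood at 6.43, 6.25 and 7.22 against 5.87 to 6.43 in old ones. Young CIAS -/- arrays stood at 6.24, 6.26 and 6.25 against 5.87 to 6.35. The groups overlapped in every genotype, most in CIAS -/- mice. The mean age effect was -0.36 (SE 0.090, 1.28-fold lower, adjusted p = 0.013), with -0.45 in wild type (adjusted p = 0.0641).

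Col1a1, a chain of type I collagen, was lower for the mean age effect (adjusted p = 0.0231). It was near the detection limit, on 3 of 4 young and 1 of 6 old wild type arrays, 2 of 3 young and 0 of 6 old ASC -/- arrays and 3 of 3 young and 2 of 6 old CIAS -/- arrays, so its old level is only an upper bound and no size is given. The call was lost without young wild type replicate 2, young ASC -/- replicate 1 or young CIAS -/- replicate 4 (adjusted p from 0.0505 to 0.0632). With the authors' normalized values adjusted p was 0.101. Col5a1, which sets the width of collagen fibrils, stood at 7.49 ± 0.12 (SD, n = 4) in wild type mice at 1 month and 7.33 ± 0.28 (SD, n = 6) at 23 months, with a mean age effect of -0.07 (adjusted p = 0.773). Over the 6 fibrillar collagens the median of the mean age effect was -0.10, with 1 higher and 1 lower.

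The basement membrane chains Col4a1 and Col4a2, which twist into the same triple helix, did not pass. Col4a1 stood at 9.00 ± 0.10 (SD, n = 4) in wild type mice at 1 month and 8.78 ± 0.25 (SD, n = 6) at 23 months. Its mean age effect was -0.16 (adjusted p = 0.209). Col4a2 stood at 8.75 ± 0.072 (SD, n = 4) and 8.62 ± 0.31 (SD, n = 6), with a mean age effect of -0.13 (adjusted p = 0.337). Both were lowest in their group on old wild type replicate 6, at 8.27 and 8.01, while the other 5 arrays ran from 8.83 to 8.91 and from 8.70 to 8.83. All 4 basement membrane collagens lay below 0 for the mean age effect, between -0.18 and -0.10, and 0 were called. In contrast, the 3 transmembrane collagens lay between 0.03 and 0.10, also uncalled. Among them Col25a1, whose product is found in amyloid plaques, gave 0.10 (adjusted p = 0.354). Col17a1 of epithelial attachment sites was detected on no young wild type or young ASC -/- array (adjusted p = 0.689). Col23a1 gave 0.03 (adjusted p = 0.927), and 0.10 without old wild type replicate 6 (adjusted p = 0.512). The fibril-associated Col16a1 gave 0.13 (adjusted p = 0.344). Col9a1, detected on no young ASC -/- array, had adjusted p = 0.37.

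The Col4a1 and Col4a2 promoters are shown because the pair starts head to head and both genes were lowest on the same old wild type array. The RefSeq starts lie on opposite strands, and the 2 windows (GRCm38.p6, chr8:11312777-11313076, minus strand, and chr8:11312555-11312854, plus strand) share 78 bases. Capitals mark matches to the CCAAT box and to the GC box GGGCGG on either strand, so that they also appear as the reverse complements.
Col4a1 promoter: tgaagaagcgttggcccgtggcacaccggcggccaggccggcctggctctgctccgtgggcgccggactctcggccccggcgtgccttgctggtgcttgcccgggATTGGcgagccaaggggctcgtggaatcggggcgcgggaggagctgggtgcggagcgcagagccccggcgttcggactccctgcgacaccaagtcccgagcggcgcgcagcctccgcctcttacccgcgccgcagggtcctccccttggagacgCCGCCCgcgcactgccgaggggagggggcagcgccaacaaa
Col4a2 promoter: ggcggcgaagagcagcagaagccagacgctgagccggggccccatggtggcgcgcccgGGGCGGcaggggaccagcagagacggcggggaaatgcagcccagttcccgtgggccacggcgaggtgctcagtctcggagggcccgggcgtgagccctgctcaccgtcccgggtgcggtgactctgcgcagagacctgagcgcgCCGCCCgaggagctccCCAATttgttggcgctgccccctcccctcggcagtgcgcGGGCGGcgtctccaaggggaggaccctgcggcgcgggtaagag

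Of the 9 laminin and nidogen genes, Nid1 fell with age. Nidogen-1 links laminin to type IV collagen in basement membranes. Young wild type arrays stood at 6.03, 5.85, 5.68 and 5.63 and old ones ran from 4.82 over 5.45 to 5.59, so the groups did not overlap. In ASC -/- mice the young arrays stood at 5.72, 5.77 and 5.82 and old ones ran from 5.40 over 5.53 to 5.75. In CIAS -/- mice the young arrays stood at 5.76, 5.59 and 6.14 and old ones ran from 5.28 over 5.68 to 5.89. CASP11-/- arrays were the highest group, at 6.11, 6.04, 6.13 and 5.98. In both knockouts with old mice the age groups overlapped. The difference was -0.45 in wild type (SE 0.122, 1.37-fold lower, adjusted p = 0.0257), -0.23 in ASC -/- (adjusted p = 0.737) and -0.18 in CIAS -/- mice (adjusted p = 0.635). Over the 3 genotypes the mean age effect was -0.29 (SE 0.075, 1.22-fold lower, adjusted p = 0.0176). The wild type call was lost without young wild type replicate 1 or 2 or old wild type replicate 1 (adjusted p from 0.0537 to 0.104), and the mean age call without young CIAS -/- replicate 4 (adjusted p = 0.0684). The summed level of 9 mural cell markers stood between 9.92 and 10.65 over young arrays and between 9.68 and 10.13 over old ones, ranges that overlapped. For the mean age effect 1 of these markers was lower, and their median difference was -0.059. Summed endothelial markers stood between 11.02 and 11.40 over all arrays, with 1 of 10 lower for the mean age effect. The part of either cell type in the result was not tested.

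The Nid1 window is given beside that of Col6a1 because these matrix genes moved in opposite directions with age (GRCm38.p6, chr13:13437352-13437651, plus strand). Capitals mark a CCAAT box on the reverse strand and a GC box.
Nid1 promoter: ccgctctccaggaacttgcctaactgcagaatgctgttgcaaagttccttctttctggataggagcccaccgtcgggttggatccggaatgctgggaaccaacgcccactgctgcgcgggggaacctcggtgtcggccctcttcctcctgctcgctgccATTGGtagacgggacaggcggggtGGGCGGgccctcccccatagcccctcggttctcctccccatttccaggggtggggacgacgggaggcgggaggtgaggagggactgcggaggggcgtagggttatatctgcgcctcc

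The other laminin chains stayed uncalled for the mean age effect. Lamc1, the most widely used gamma chain, gave -0.12 (adjusted p = 0.39), with 7.16 ± 0.11 (SD, n = 4) in wild type mice at 1 month and 7.01 ± 0.21 (SD, n = 6) at 23 months. Lamc3, the gamma3 chain, gave -0.17 (adjusted p = 0.0603). Lamb2, a beta chain of vessel and synaptic basement membranes, gave 0.14 (adjusted p = 0.111). Nid2, the other nidogen, gave -0.07 (adjusted p = 0.848) and had the widest spread within groups of all members, a pooled SD of 0.387 against a median of 0.181 for the members and 0.148 for all features.

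Among integrins, Itgb5 rose for the mean age effect. Its beta5 chain pairs with alphaV to bind vitronectin. In wild type the young arrays stood at 8.88, 9.00, 8.89 and 8.93 and old ones ran from 8.82 over 9.03 to 9.23. Young ASC -/- arrays stood at 8.74, 8.92 and 8.79 against 8.93 to 9.55 in old ones, and young CIAS -/- arrays at 8.87, 8.79 and 8.79 against 9.06 to 9.30. Old and young arrays were apart in both knockouts and overlapped in wild type. The mean age effect was 0.26 (SE 0.057, 1.20-fold, adjusted p = 0.00428). Single genotypes gave 0.11 in wild type (adjusted p = 0.518), 0.32 in ASC -/- (adjusted p = 0.247) and 0.34 in CIAS -/- mice (adjusted p = 0.13).

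Itga3, whose alpha3 chain pairs with beta1 to bind laminins, fell with age in wild type. Young arrays stood at 8.34, 8.24, 8.30 and 8.16 and old ones ran from 7.69 over 8.01 to 8.16. The difference was -0.31 (SE 0.083, 1.24-fold lower, adjusted p = 0.0265). It was 0.16 in ASC -/- mice (adjusted p = 0.733) and -0.03 in CIAS -/- mice (adjusted p = 0.943). The wild type call was lost without young wild type replicate 1, 2 or 3 or old wild type replicate 1 (adjusted p from 0.0551 to 0.0814). Itgb4, which pairs with alpha6 in laminin-bound attachment plaques, had non-overlapping wild type groups with a difference of 0.51 (adjusted p = 0.102). Without old wild type replicate 6 it was 0.35 (adjusted p = 0.19). The other detected Itgb4 probe gave 0.54 (adjusted p = 0.0809) with that replicate included, and its value without it is not given. Old and young arrays did not overlap for 6 members in wild type (6.03% of all features), 6 in ASC -/- (5.12%) and 5 in CIAS -/- mice (6.96%). Itgb1, the most widely shared beta chain, gave a mean age effect of -0.20 (adjusted p = 0.0913). The level of its tested probe was low, between 4.89 and 5.67 over all arrays. The laminin receptor chain Itga7 gave -0.13 (adjusted p = 0.532) and the collagen receptor chain Itga11 0.10 (adjusted p = 0.578).

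Among proteases, Adam19 had the smallest p of all members for the mean age effect. ADAM19 is a membrane-bound protease that can shed neuregulin. Young wild type arrays stood at 7.65, 7.40, 7.77 and 7.74 and old ones ran from 7.07 over 7.24 to 7.54. In ASC -/- mice the young arrays stood at 7.65, 7.64 and 7.96 and old ones ran from 7.20 over 7.30 to 7.34. Young CIAS -/- arrays stood at 7.72, 7.64 and 7.45 and old ones ran from 7.14 over 7.25 to 7.46. CASP11-/- arrays, at 7.47, 7.64, 7.61 and 7.51, resembled other young arrays. Old and young arrays were apart in ASC -/- mice and overlapped narrowly in the other genotypes. The difference was -0.37 in wild type (SE 0.083, 1.29-fold lower, adjusted p = 0.00722), -0.47 in ASC -/- (SE 0.091, 1.38-fold lower, adjusted p = 0.00967) and -0.32 in CIAS -/- mice (adjusted p = 0.113). Over the 3 genotypes the mean age effect was -0.39 (SE 0.051, 1.31-fold lower, adjusted p = 6.59e-06), and it kept its call in every alternative run. The ASC -/- call was lost without young replicate 4 (adjusted p = 0.206) and with the covariate for sex-linked transcripts (adjusted p = 0.0562). Without old wild type replicate 6 the CIAS -/- difference passed as well.

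Adam17 encodes the sheddase that releases tumour necrosis factor and several growth factors. In wild type the young arrays stood at 8.09, 8.19, 8.27 and 8.30, and old ones ran from 7.65 over 7.71 to 8.39, with replicate 6 above every young array. Young ASC -/- arrays stood at 7.97, 7.93 and 8.17 and old ones ran from 7.63 over 7.78 to 7.95. In CIAS -/- mice the young arrays stood at 8.08, 7.87 and 8.07 and old ones ran from 7.65 over 7.76 to 7.91. Apart from that replicate, old arrays lay lower than most young ones in each genotype. The difference was -0.38 in wild type (SE 0.102, 1.30-fold lower, adjusted p = 0.0241, lower in 5 of 6 old arrays) and -0.49 without replicate 6 (adjusted p = 0.000115). It was -0.23 in ASC -/- (adjusted p = 0.633) and -0.24 in CIAS -/- mice (adjusted p = 0.377), and the mean age effect was -0.28 (SE 0.062, 1.22-fold lower, adjusted p = 0.00435). The wild type call was lost without young wild type replicate 2, 3 or 4 or old wild type replicate 2 or 3 (adjusted p from 0.0523 to 0.0823).

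Of the other ADAM genes, Adam23, a neuronal receptor without protease activity, stood at 11.78 ± 0.095 (SD, n = 4) in wild type mice at 1 month and 11.98 ± 0.19 (SD, n = 6) at 23 months (0.20, adjusted p = 0.162). Its 3 detected probes disagreed, at 0.20, 0.38 and -0.09 in wild type. Adam9 and Adam15, both widely expressed, gave mean age effects of 0.07 (adjusted p = 0.702) and -0.01 (adjusted p = 0.952). Adam10, the main alpha-secretase of neurons, was measured by 1 probe that was detected on 9 of 32 arrays and on no young wild type or young ASC -/- array (mean age effect, adjusted p = 0.813). The median of the mean age effect over the 13 ADAM genes was -0.05.

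**Figure D3:**
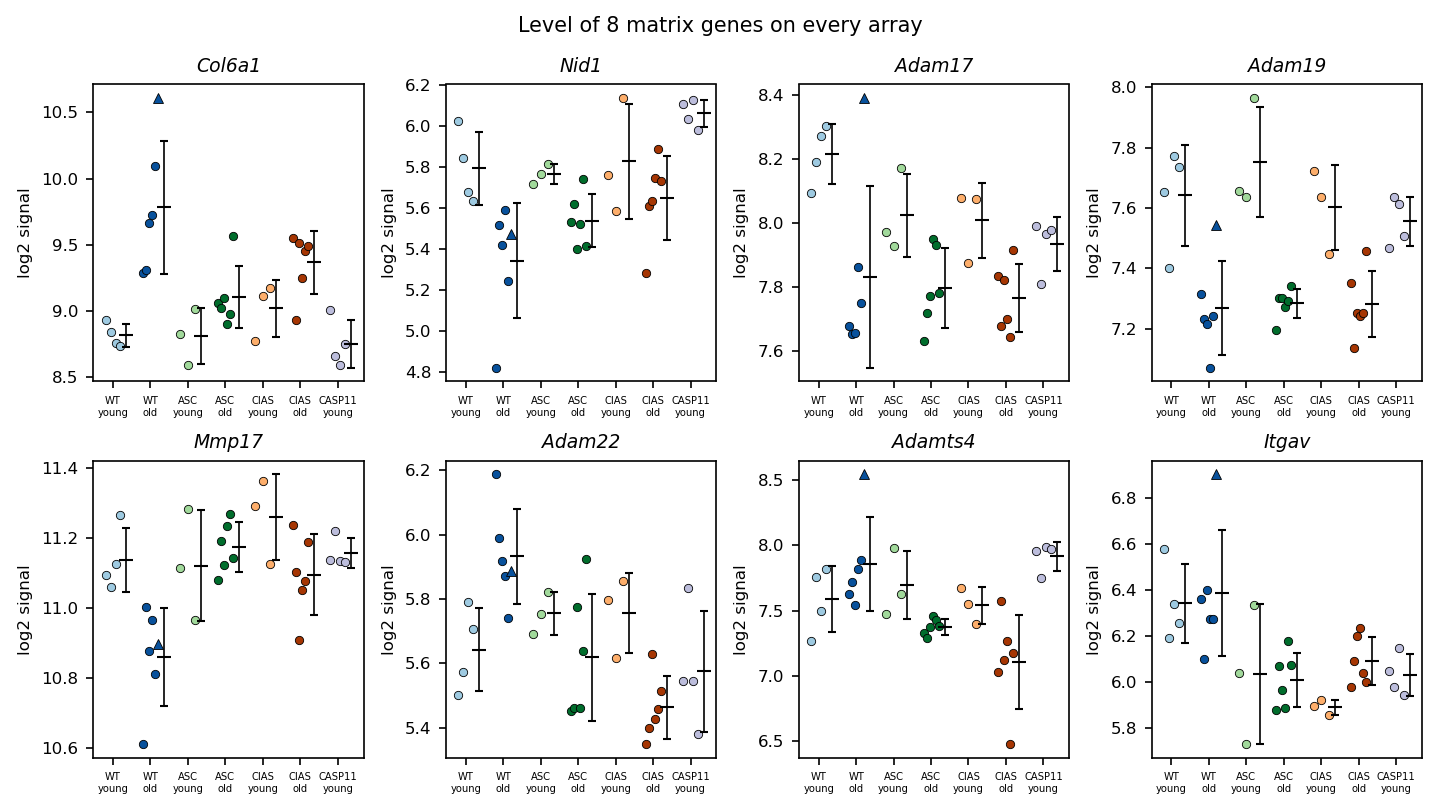
Log2 normalised signal (y axis) on every array by group (x axis) for Col6a1, Nid1, Adam17, Adam19, Mmp17, Adam22, Adamts4 and Itgav. Points are arrays, the triangle is old wild type replicate 6, and bars are the group mean ± SD. Col6a1 runs from 8.74 to 8.93 in young and from 9.29 to 10.61 in old wild type mice.

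Neither the ADAMTS genes nor the TIMPs passed for age. Adamts5, an aggrecanase, had adjusted p = 0.0606 for the mean age effect. No size is given, since it was detected on 4 of 4 young and 1 of 6 old wild type arrays and on 0 of 6 old ASC -/- arrays. Without old wild type replicate 6, where it stood at 5.58 against 4.75 to 4.98 on the other 5, it was lower with age in wild type (adjusted p = 0.00334). Adamts16 gave -0.24 (adjusted p = 0.108). Timp2, which can inhibit MMP2 or help activate it, stood at 11.95 ± 0.12 (SD, n = 4) in wild type mice at 1 month and 11.89 ± 0.11 (SD, n = 6) at 23 months, with a mean age effect of 0.03 (adjusted p = 0.807). Timp3, the matrix-bound inhibitor of ADAM17 and aggrecanases, gave 0.15 (adjusted p = 0.194). Timp4 gave -0.16 (adjusted p = 0.204).

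The membrane-type metalloproteinases Mmp17 and Mmp24 fell with age in wild type. Mmp17 is held at the surface by a lipid anchor. Its young wild type arrays stood at 11.10, 11.06, 11.13 and 11.27 and old ones ran from 10.61 over 10.89 to 11.00, so the groups were apart. The difference was -0.28 (SE 0.073, 1.21-fold lower, adjusted p = 0.0237), against 0.05 in ASC -/- (adjusted p = 0.947) and -0.16 in CIAS -/- mice (adjusted p = 0.408). The call was lost without young wild type replicate 3 or 4 or old wild type replicate 1 (adjusted p from 0.0501 to 0.105). Mmp24, a brain-enriched protease that cuts cadherins, stood at 9.15, 9.11, 9.15 and 9.12 in young wild type mice and ran from 8.81 over 8.90 to 8.98 in old ones. These groups were apart too. The difference was -0.24 (SE 0.070, 1.18-fold lower, adjusted p = 0.0405). The call was lost without any young wild type array or without old wild type replicate 2, 3, 5 or 6 (adjusted p from 0.0515 to 0.0938). It was also lost with the covariate for sex-linked transcripts (adjusted p = 0.0716). Without old wild type replicate 6 the difference was -0.22 (adjusted p = 0.0602). The gelatinases Mmp2 and Mmp9 gave mean age effects of 0.05 (adjusted p = 0.84) and -0.05 (adjusted p = 0.746), and Mmp14, which activates MMP2, gave -0.04 (adjusted p = 0.843).

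A test of whether age acted differently in a knockout than in wild type was made for every member. With limma 0 of 78 passed for ASC -/- mice, where 0.0179% of all features did. For CIAS -/- mice 0 passed, against 0.376% of all features. An unadjusted p under 0.05 was found for 7 members in ASC -/- mice, against 9.94% of all features. In CIAS -/- mice it was found for 8, against 13.2%. The smallest adjusted p of a member was 0.22 for ASC -/- mice, at Itga3 (0.46), and 0.0579 for CIAS -/- mice, at Adam22 (-0.58, SE 0.141). For Col6a1 the age effect was lower than in wild type by point estimates of -0.67 in ASC -/- (adjusted p = 0.413) and -0.62 in CIAS -/- mice (adjusted p = 0.302). The Adam22 difference passed the threshold without old wild type replicate 5 or 6, old ASC -/- replicate 4 or 6, old CIAS -/- replicate 3 or CASP11-/- replicate 2.

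**Figure D4:**
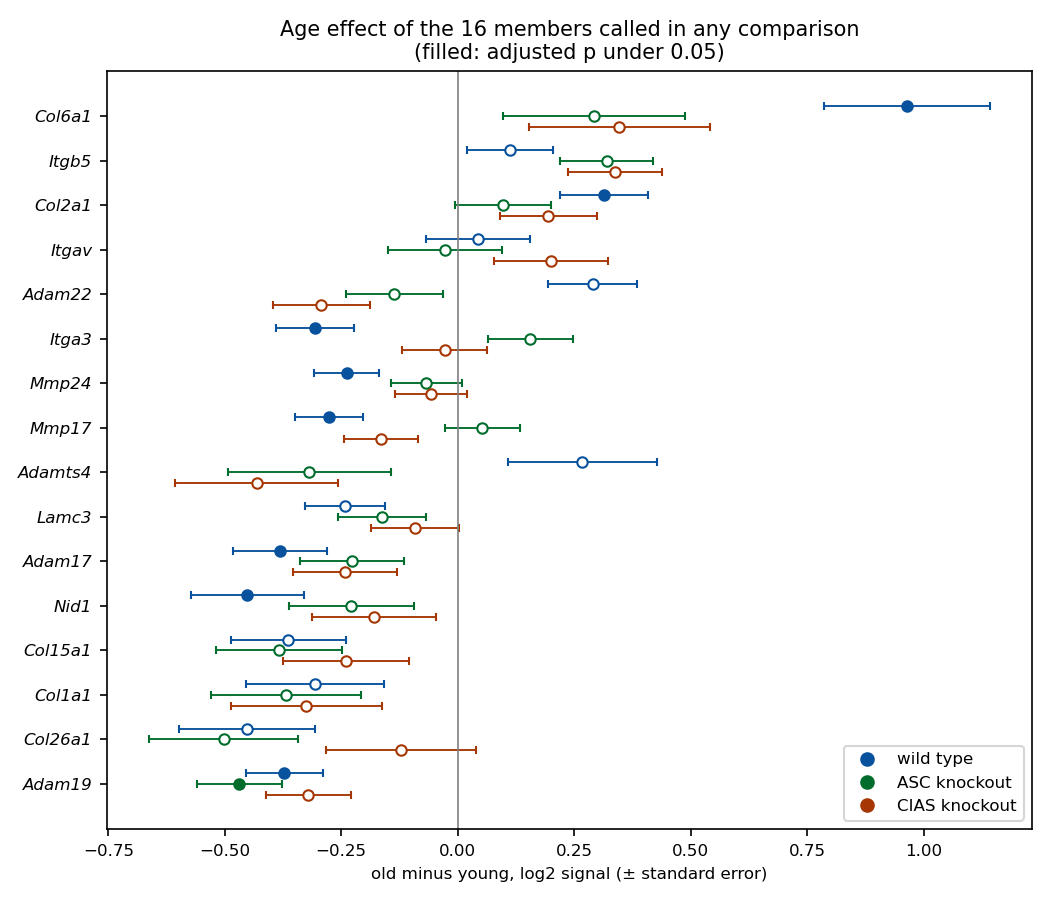
Age effect (old minus young, log2 units, x axis) in wild type, ASC -/- and CIAS -/- mice for the 16 members called in any comparison (y axis). Points are fitted differences, bars are ± SE, and filled points passed adjusted p under 0.05. The ASC -/- point of Col1a1 rests on old arrays without detection and is only a bound. Col6a1 gives 0.96 in wild type, 0.29 in ASC -/- and 0.35 in CIAS -/- mice.

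Old knockout mice were then compared with old wild type mice. These comparisons share the old wild type arrays with each other and with the wild type age effect, so their values are given side by side and are not independent. In old ASC -/- against old wild type mice 5 of 78 members passed (6.41%), 2 higher and 3 lower, against 3.41% of all features (1.67% higher and 1.74% lower). In old CIAS -/- against old wild type mice 4 passed (5.13%), 2 higher and 2 lower, against 6.83% (2.94% higher and 3.89% lower). Members below 0 made up 42.3% against 43.5% of all features in the first comparison and 33.3% against 42.0% in the second. Old arrays did not overlap with old wild type for 3 members in ASC -/- (1.99% of all features) and 1 in CIAS -/- mice (2.77%). In fits of only the groups compared 0 and 2 members were called. Shares over all features are not given for these fits nor, apart from old wild type replicate 6, for single arrays left out. Without old wild type replicate 6, 3 were called in each, where 3.87% and 7.08% of all features were. For ASC -/- mice removal of a single array left between 1 and 6, with 1 left without old ASC -/- replicate 5, 2 without old wild type replicate 1 or old ASC -/- replicate 4, and 3 without old wild type replicate 4 or old ASC -/- replicate 1. For CIAS -/- mice it left between 2 and 6, with 2 left without old CIAS -/- replicate 6.

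Summed microglial markers moved with these comparisons. They stood between 11.18 and 11.32 in young and between 11.56 and 11.88 in old wild type mice, between 11.33 and 11.49 in old ASC -/- and between 11.16 and 11.41 in old CIAS -/- mice. Of the 10 microglial markers, 6 were higher with age in wild type, 5 were lower in old ASC -/- and 6 in old CIAS -/- than in old wild type mice. The part of microglia in the results below was not tested.

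Adam22 was lower in both old knockouts. ADAM22 has no protease activity and is the synaptic receptor of the secreted LGI proteins. Young wild type arrays stood at 5.50, 5.57, 5.79 and 5.71 and old ones ran from 5.74 over 5.90 to 6.19. In ASC -/- mice the young arrays stood at 5.69, 5.75 and 5.82 and old ones ran from 5.45 over 5.55 to 5.92. Young CIAS -/- arrays stood at 5.80, 5.62 and 5.86 and old ones ran from 5.35 over 5.44 to 5.63. CASP11-/- arrays stood at 5.55, 5.83, 5.55 and 5.38. All 6 old CIAS -/- arrays lay below all old wild type arrays, and old ASC -/- arrays overlapped with them. Old CIAS -/- minus old wild type was -0.47 (SE 0.085, 1.38-fold lower, adjusted p = 0.000922). Old ASC -/- minus old wild type was -0.31 (SE 0.085, 1.24-fold lower, adjusted p = 0.0373).

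The CIAS -/- call of Adam22 was kept in every alternative run. Its other 2 detected probes were lower too, by -0.64 (adjusted p = 0.00557 over all probes) and -0.48 (adjusted p = 0.00531). For ASC -/- mice those probes gave -0.54 (adjusted p = 0.0334) and -0.30 (adjusted p = 0.11), and the call was lost without old wild type replicate 1, 2, 3 or 4 or old ASC -/- replicate 1, 2, 4 or 5 (adjusted p from 0.0514 to 0.104). The age difference was 0.29 in wild type (adjusted p = 0.0678), -0.14 in ASC -/- (adjusted p = 0.829) and -0.29 in CIAS -/- mice (adjusted p = 0.219). In CASP11-/- mice the tested probe gave -0.07 (adjusted p = 0.833) and the others -0.77 (adjusted p = 0.0121) and -0.19 (adjusted p = 0.549), so the probes disagreed there. Adam11 and Adam23, which bind the same ligands, did not pass in either comparison. The Adam22 window, shown because that CIAS -/- call was kept throughout, held none of the 4 motifs searched (GRCm38.p6, chr5:8368111-8368410, minus strand).
Adam22 promoter: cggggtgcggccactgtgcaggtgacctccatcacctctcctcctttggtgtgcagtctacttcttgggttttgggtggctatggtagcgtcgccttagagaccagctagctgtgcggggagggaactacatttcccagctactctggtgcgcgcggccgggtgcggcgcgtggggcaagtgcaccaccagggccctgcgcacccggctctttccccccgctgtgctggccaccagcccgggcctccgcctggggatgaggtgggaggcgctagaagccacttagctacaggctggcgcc

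Lgi2, a gene of the LGI family and no member, was looked at after its values were seen because its family binds ADAM22. It stood at 8.06 ± 0.14 (SD, n = 4) in wild type mice at 1 month and 8.54 ± 0.18 (SD, n = 6) at 23 months. Old ASC -/- mice had 8.06 ± 0.23 (SD, n = 6), old CIAS -/- mice 7.78 ± 0.23 (SD, n = 6) and CASP11-/- mice 7.42 ± 0.11 (SD, n = 4). The wild type age difference was 0.47 (SE 0.115, adjusted p = 0.0132). Old knockouts lay below old wild type by -0.47 in ASC -/- (adjusted p = 0.0127) and -0.75 in CIAS -/- mice (adjusted p = 2.58e-05), and the age effect in CIAS -/- mice was lower than in wild type (-0.79, SE 0.170, adjusted p = 0.0301). Young CASP11-/- mice also lay below young wild type mice, by -0.65 (adjusted p = 0.00292).

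Adamts4, which cuts the brain proteoglycans brevican and neurocan, was lower in old CIAS -/- mice. Old wild type arrays ran from 7.54 over 7.77 to 8.54, the highest being replicate 6, and old CIAS -/- arrays from 6.48 over 7.15 to 7.57, the lowest being replicate 5. Old ASC -/- arrays ran from 7.29 over 7.38 to 7.46. In wild type the young arrays stood at 7.27, 7.76, 7.50 and 7.82. Old CIAS -/- arrays overlapped narrowly with old wild type, and old ASC -/- arrays lay below all of them. The CIAS -/- difference was -0.75 (SE 0.143, 1.68-fold lower, adjusted p = 0.00152), -0.61 without old wild type replicate 6 (adjusted p = 0.00292) and -0.62 without old CIAS -/- replicate 5 (adjusted p = 0.00336). The ASC -/- difference was -0.48 (adjusted p = 0.0569). Age differences were 0.27 in wild type (adjusted p = 0.353; 0.13 without replicate 6, adjusted p = 0.633), -0.32 in ASC -/- (adjusted p = 0.701) and -0.43 in CIAS -/- mice (adjusted p = 0.301). Summed mature oligodendrocyte markers, 8 genes, ran from 14.46 to 15.35 in old wild type mice, highest on replicate 6, and from 14.02 to 14.71 in old CIAS -/- mice, with 2 markers lower. Their part in the Adamts4 difference was not tested.

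Mmp17 was higher in both old knockouts than in old wild type mice. Old ASC -/- arrays ran from 11.08 over 11.17 to 11.27, above the old wild type range of 10.61 to 11.00, and old CIAS -/- arrays from 10.91 over 11.09 to 11.24. The differences were 0.31 for ASC -/- (SE 0.066, 1.24-fold, adjusted p = 0.0102) and 0.23 for CIAS -/- mice (SE 0.066, 1.18-fold, adjusted p = 0.0275). The CIAS -/- call was lost without old wild type replicate 1 or old CIAS -/- replicate 1 or 6 (adjusted p from 0.0773 to 0.0788). The difference in age effect was 0.33 (adjusted p = 0.316) and 0.11 (adjusted p = 0.746).

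Itga3 was higher in old ASC -/- mice, where arrays ran from 8.04 over 8.18 to 8.53 against 7.69 to 8.16 in old wild type mice. The difference was 0.27 (SE 0.074, 1.21-fold, adjusted p = 0.0393), lost without old wild type replicate 1, 4 or 6 or old ASC -/- replicate 4, 5 or 6 (adjusted p from 0.0529 to 0.125). Without old wild type replicate 6 it was 0.22 (adjusted p = 0.075). In old CIAS -/- mice it was 0.16 (adjusted p = 0.208), and 0.10 without that array (adjusted p = 0.433). Itgav, the alphaV chain of vitronectin and latent TGF-beta receptors, was lower in old ASC -/- mice. Old wild type arrays ran from 6.10 over 6.32 to 6.90, highest on replicate 6, and old ASC -/- arrays from 5.87 over 6.02 to 6.18. The difference was -0.38 (SE 0.1001, 1.30-fold lower, adjusted p = 0.0349). It was lost without old wild type replicate 1, 3 or 6 or old ASC -/- replicate 1, 4 or 5 (adjusted p from 0.05003 to 0.0877). Without replicate 6 it was -0.27 (adjusted p = 0.0617). Old CIAS -/- mice gave -0.30 (adjusted p = 0.0711), and -0.19 without replicate 6 (adjusted p = 0.177). Young knockouts also had lower Itgav values than young wild type mice, by -0.31 in ASC -/- (adjusted p = 0.999), -0.45 in CIAS -/- (adjusted p = 0.256) and -0.31 in CASP11-/- mice (adjusted p = 0.195), none of which passed.

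Col6a1 was lower in old ASC -/- than in old wild type mice, by -0.68 (SE 0.159, 1.60-fold lower, adjusted p = 0.0198) and by -0.51 without old wild type replicate 6 (adjusted p = 0.0296). The call was lost without old ASC -/- replicate 5 (adjusted p = 0.0546), and the other Col6a1 probe gave -0.33 (adjusted p = 0.247). Old CIAS -/- mice gave -0.41 (adjusted p = 0.111), and -0.25 without that replicate (adjusted p = 0.282). Lamc3 was higher in old CIAS -/- mice, with arrays from 5.07 over 5.27 to 5.52 against 4.86 over 5.04 to 5.15 in old wild type mice. The difference was 0.25 (SE 0.077, 1.19-fold, adjusted p = 0.0449), and 0.22 without old wild type replicate 6 (adjusted p = 0.0918). The probe was detected on 3 of 6 old wild type arrays, and the call was lost without any of 13 arrays, young wild type replicates 2 to 4, old wild type replicates 1, 2, 3 and 6, old CIAS -/- replicates 3 to 6 and CASP11-/- replicates 2 and 4 (adjusted p from 0.0504 to 0.107).

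Young knockouts showed no called member. With limma 0 of 78 passed for ASC -/- (0.0268% of all features, 0.0179% higher and 0.00895% lower), 0 for CIAS -/- (0%) and 0 for CASP11-/- mice (2.67%, 0.823% higher and 1.85% lower) against young wild type mice. At an unadjusted p under 0.05 there were 4, 3 and 8 members, against 4.55%, 7.75% and 15.1% of all features. The smallest adjusted p of a member were 0.766, 0.256 and 0.112. The smallest in CASP11-/- mice was Timp4 at -0.37, with 7.87 ± 0.072 (SD, n = 4) against 8.24 ± 0.15 (SD, n = 4). In a fit of only those 2 groups Timp4 was called. Without young wild type replicate 2 the collagen Col25a1 was called. Shares over all features are not given for these fits. Without old wild type replicate 6 Timp4 and Adam17 were called (4.38% of all features). Groups did not overlap for 2, 6 and 6 members, against 6.22%, 9.89% and 13.2% of all features.

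Genes that act with these families were read from 5 lists. For the mean age effect 3.42% of all features were higher and 2.73% lower, so single called genes do not set a list apart. Of 19 measured genes of collagen synthesis and crosslinking, 1 was higher and 3 were lower for the mean age effect, with a median of -0.046 against -0.0029 for all features. Tgm2, a crosslinking transglutaminase, rose by 0.37 (SE 0.084, adjusted p = 0.00629). P4ha1, a catalytic subunit of prolyl 4-hydroxylase, fell by 0.33 (SE 0.077, adjusted p = 0.00766) and the lysyl hydroxylase Plod1 by 0.26 (SE 0.068, adjusted p = 0.0163). Serpinh1, the collagen chaperone, was also lower (adjusted p = 0.00572). It was detected on 4 of 4 young but 1 of 6 old wild type arrays and on 0 of 6 old CIAS -/- arrays, so its old level is only an upper bound and no size is given.

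Of 20 integrin adhesion partners 0 were higher and 1 was lower for the mean age effect, the focal adhesion adaptor Lims2 (-0.27, SE 0.064, adjusted p = 0.00884). Cd47, an integrin-associated surface protein that signals to phagocytes, rose with age in wild type mice. It stood at 9.88 ± 0.11 (SD, n = 4) in wild type mice at 1 month and 10.29 ± 0.085 (SD, n = 6) at 23 months (0.41, adjusted p = 0.00882). Old ASC -/- mice had 9.88 ± 0.11 (SD, n = 6) and old CIAS -/- mice 9.88 ± 0.27 (SD, n = 6), lower by -0.41 (adjusted p = 0.01) and -0.40 (adjusted p = 0.00353). Cd47 lies outside the rule for naming genes and was picked after its values were seen.

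Of 20 other basement membrane proteins and glycoproteins 1 was higher and 0 were lower, the calcium-binding matrix protein Smoc1 (0.28, SE 0.073, adjusted p = 0.0163). Of 20 protease inhibitors and regulators 2 were higher and 0 lower, the lysosomal protease Ctss (0.56, SE 0.083, adjusted p = 3.59e-05) and the LGI family gene Lgi4 (0.21, SE 0.048, adjusted p = 0.00758). Of 16 proteoglycan and perineuronal net genes 1 was higher and 2 were lower. These were the node-of-Ranvier link protein Hapln2 (0.81, SE 0.104, adjusted p = 5.14e-06), tenascin-C, encoded by Tnc (-0.74, SE 0.078, adjusted p = 1.91e-07), and neurocan, encoded by Ncan (-0.23, SE 0.047, adjusted p = 0.00217). These lists were chosen with earlier results of these data known.

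Promoter windows were found for 53 of the 78 genes, 62 windows in all. The GC box GGGCGG occurred in 59.7% of them and in 35.7% of all 32851 mouse windows, whose median GC content was 60.2% and 52.7%. The TATA box TATAAA occurred in 6.45% against 13.6%, the CCAAT box in 37.1% against 37.4%, and the AP-1 motif TGANTCA in 8.06% against 7.81%. Both strands were searched. These shares describe letters in the windows and were not tested.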

How the data were processed

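Each sample of hippocampal RNA was measured on 1 Illumina bead array. The deposited signal table gives linear probe intensity, not normalized per the file headers, for 25697 probes on 32 arrays, the lowest being 27.04. Per the file headers, each deposited intensity has a detection p-value. GenomeStudio appears in the submitters' processing notes without a version. The authors also deposited normalized intensity values by a method not given in the sources used here, which were tried after raising values under 16 to that floor. The number of arrays limits precision.

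The intensity values were processed with limma 3.58.1 in R 4.3.3 by neqc (normexp background correction with controls inferred from detection p-values, offset 16, quantile normalization, log2). Probes with detection p under 0.05 on at least 3 arrays were kept (14745), and the brightest probe of a gene over all arrays was tested, which gave 11178 features. One fit of 7 group means had 25 residual and 4.087 prior degrees of freedom and gave 11 comparisons, 2-sided, called at Benjamini-Hochberg adjusted p under 0.05. It was also run on simulated independent noise around the mean of each feature, with known shifts added to the old wild type arrays. That noise held no array that stood apart and no sex difference, so the run does not bear on these. A gene not detected on any array of a group has only an upper bound there, so no size is given. Named members are those called in any comparison, the 2 with the smallest p for the mean age effect and the 1 with the highest mean in each class, and a few others given as examples after their values were seen. Of related genes, up to 4 called for the mean age effect in each list are named. The members and lists were chosen with earlier results of these data known. The sequences shown, the arrays grouped by Xist and the marker sums beside results were also chosen after values were seen. Marker sums are log2 of the summed linear levels. Alternatives were other normalizations and filters, array weights, a replicate block, a covariate for sex-linked transcripts, all probes tested separately, fits of only the groups compared and each array left out in turn.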

Additional observations from a re-analysis of the deposited data

Results flagged for a closer look

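The 35 named members were read in each group of 4 or 6 arrays, and in 14 of these 175 sets of values 1 array lay far from the rest, where chance gives about 1 in 20. The sets share arrays and are not independent, so no excess over that rate is claimed. Old wild type replicate 6 accounted for 6 of them. On it Adam17 stood at 8.39 (the other 5 arrays from 7.65 to 7.86), Adamts4 at 8.54 (7.54 to 7.88) and Adamts5 at 5.58 (4.75 to 4.98). Col23a1 stood at 5.46 (6.41 to 6.83), Col4a1 at 8.27 (8.83 to 8.91) and Col4a2 at 8.01 (8.70 to 8.83). This is the array with high striatal and low hippocampal marker sums, whose part in these values was not tested.

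CASP11-/- replicate 2 was apart for Adam17 at 7.81 (7.96 to 7.99), Adamts4 at 7.75 (7.95 to 7.99) and Mmp17 at 11.22 (11.13 to 11.14). The others were single. Col16a1 stood at 8.30 on old CIAS -/- replicate 2 (8.66 to 8.82) and Col2a1 at 4.72 on young wild type replicate 3 (5.14 to 5.18). Col6a1 stood at 9.56 on old ASC -/- replicate 6 (8.91 to 9.10), Itga7 at 5.37 on young wild type replicate 1 (6.02 to 6.08) and Lamc1 at 6.34 on old ASC -/- replicate 4 (6.87 to 7.09).

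The age effect of Adam22 ran in opposite directions, 0.29 in wild type and -0.29 in CIAS -/- mice. The test of this difference gave -0.58 (SE 0.141, adjusted p = 0.0579) and missed the threshold.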

How the results depend on the processing

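Of 27 called results for members, 0 changed direction under any alternative, 11 kept their call whichever single array was left out, and 3 kept it under all alternatives run, namely the mean age effect of Adam19 and the old CIAS -/- differences of Adam22 and Adamts4. Fits of only the groups compared called 0 members for age in wild type, 0 for old ASC -/-, 2 for old CIAS -/- and 1 (Timp4) for young CASP11-/- against wild type. They share less information on the spread, since fewer arrays enter. Without the 8 arrays with high Xist, chosen after seeing the data, 1 member was called for age in wild type (Col26a1), 0 in ASC -/- mice, 1 for the mean age effect, 1 for old ASC -/- and 2 for old CIAS -/- mice (1.66%, 0.696% and 4.1% of all features in the last 3). The covariate for sex-linked transcripts left 0 for age in ASC -/- mice. Array weights called 3 for age in CIAS -/- mice (Adam19, Col4a2 and Itgb5), 16 for the mean age effect and 3 for young CASP11-/- mice (Adam17, Itga3 and Timp4). No filter on dim probes left 2 for old ASC -/- mice, and all probes tested separately gave 1 for young CASP11-/- mice. The cause of these shifts was not tested. Except for the runs without the 8 arrays with high Xist, counts of called members in this section come without shares over all features. They therefore do not set the members apart from other genes. With 1 array left out in turn, counts ran from 3 to 9 for age in wild type, 0 to 1 in ASC -/-, 0 to 1 in CIAS -/- mice and 7 to 12 for the mean age effect. They ran from 0 to 0 and 0 to 1 for the differences in age effect, 1 to 6 for old ASC -/-, 2 to 6 for old CIAS -/-, 0 to 0 for young ASC -/- and CIAS -/- and 0 to 2 for young CASP11-/- mice. No pairing by number was seen in the deviations of same-numbered arrays of different groups (79 pairs, median r = -0.007, from -0.269 to 0.401, 17 over 0.1). For differently numbered arrays the median r was 0.012 (354 pairs, 75 over 0.1). Only 6 arrays correlated best with their own number. A weak or partial pairing could be missed by such a check. With the replicate block 6 members were called for age in wild type, 1 in ASC -/- mice, 0 in CIAS -/- mice, 8 for the mean age effect, 6 for old ASC -/- and 4 for old CIAS -/- mice, and 0 in the other comparisons. Dim probes limit what could be seen, since 55 of 133 genes were not measured.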
